A study of Arabidopsis thaliana with 6 samples.

Results

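Plants move sugars, nitrogen and minerals across membranes with families of carrier proteins. SWEET proteins let sugars pass down their gradient, out of cells or across the vacuolar membrane, and some of them release sucrose beside the phloem, the tissue that exports sugar from leaves. TMT proteins are carriers of the vacuolar membrane that bring hexoses into the vacuole in exchange for protons. NRT2 proteins take up nitrate at low supply, ZIP proteins carry zinc, iron and related metals, and NRAMP proteins carry divalent metals such as iron and manganese.

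The transporter genes were chosen by symbol alone. A probe set was taken where it named 1 gene whose symbol was SWEET, SUC, STP, TMT, NRT, AMT, AAP, LHT, PHT, KUP, ZIP or NRAMP followed by a number. The rule used no measured value, but the genes were chosen with earlier results of these data known. It gave 21 genes of the 13356 that probe sets naming a single gene covered on the array. They were 14 SWEET genes and 3 TMT genes, counted as sugar transporters, 1 nitrogen transporter (NRT2.5), and 3 mineral transporters (ZIP6, ZIP9 and NRAMP5). RefSeq, in its TAIR10.1 assembly, gives 109 genes with symbols of these 12 families, so the 21 cover the SWEET family (14 of 15 such symbols) and the TMT family (3 of 3) far better than NRT (1 of 14), ZIP (2 of 13) or NRAMP (1 of 6). No probe set named a SUC, STP, AMT, AAP, LHT, PHT or KUP gene, and those 7 families were not analysed here. Each of the 21 genes had 1 probe set.

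Transcripts were measured on 6 Affymetrix arrays made from the shoots (labelled as aerial part) of Arabidopsis thaliana plants aged 30 days in the Col-0 background, grown in metro mix at 22 °C with 12 h of daylight. Titles give 3 arrays of the epiF3 line and 3 of the Col-0 wild type, each group numbered as biological replicates 1 to 3, and RNA was extracted plant by plant. The description field of the epiF3 samples instead calls them albino plants carrying an msh1 mutation, and the labels do not settle how the names relate, so the line is called epiF3 here and MSH1 was not analysed. All values below are deposited values on the log2 scale, and every change is epiF3 minus wild type.

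The leaf gene RCA, which encodes the activase of Rubisco, lay between 12.5 and 12.8 on epiF3 arrays and between 12.6 and 12.9 on wild-type arrays. The array's own hybridization controls, foreign transcripts added before hybridization, averaged 8.19, 8.36 and 10.5 on epiF3 replicates 1 to 3, against 7.53, 7.11 and 8.21 on wild-type replicates 1 to 3, so epiF3 replicate 3 stands apart. On that array the 10th percentile of all probe sets was also higher, at 2.12 against 1.93 to 1.99 on the other arrays. Among probe sets in the lowest 25% of every array, 76.6% had a positive change and 56.2% had their highest value on epiF3 replicate 3. Whether this array difference bears on the transporter genes was not tested beyond the values given with them. The number of arrays limits the precision.

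None of the 21 transporter genes passed the test across all probe sets (limma, two-sided, Benjamini-Hochberg adjusted p under 0.05), and the smallest adjusted p among them was 0.11, for SWEET1. Of all 22746 probe sets, 0.268% passed as higher in epiF3 and 0.33% as lower. At an unadjusted p under 0.05, 3 of the 21 genes were higher (SWEET1, SWEET2 and SWEET10) and 0 were lower, beside 5.37% of all probe sets higher and 5.51% lower. In 1 gene, SWEET1, all epiF3 values lay above all wild-type values, and in 0 genes below them. Over all probe sets, 9.75% had epiF3 values wholly above and 7.11% wholly below.

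**Figure D1:**
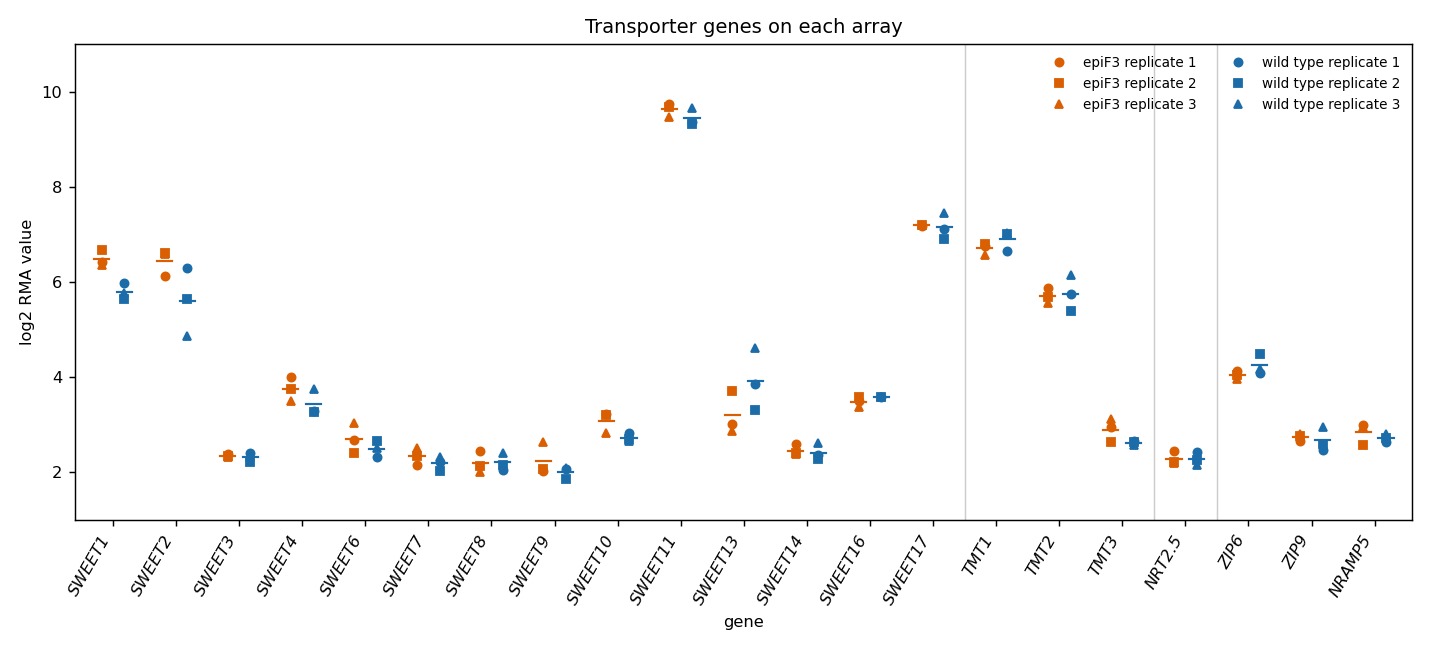
Deposited log2 RMA value (vertical axis) of each of the 21 transporter genes (horizontal axis) on each array, with epiF3 in orange left of wild type in blue, a symbol for each replicate and a bar for the group mean. SWEET1 is the gene whose epiF3 points (6.36 to 6.66) all lie above its wild-type points (5.65 to 5.98), while SWEET2 and SWEET13 spread widest across the arrays. Heights are not comparable between genes, since each has its own probes.

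SWEET1 (AT1G21460), a glucose carrier of the plasma membrane, had values of 6.43, 6.66 and 6.36 on epiF3 arrays, against 5.98, 5.65 and 5.76 on wild-type arrays. The lowest epiF3 value thus stood above the highest wild-type value, and the 3 arrays of each group lay close together. In epiF3 the mean was 6.48 ± 0.160, against 5.80 ± 0.168 in wild type (SD, here and below, n = 3 arrays a group). The change was 0.68 (SE 0.15, 95% interval 0.34 to 1.02), which is 1.61-fold with an interval of 1.27 to 2.03. Its adjusted p of 0.11 (limma) missed the threshold, which it passed when arrays were weighted by their quality, where the change was 0.77 with an adjusted p of 0.0324. Across the 17 alternatives the change lay between 0.59 and 0.78 and the adjusted p between 0.0324 and 0.402.

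SWEET2 (AT3G14770), a sugar carrier of the vacuolar membrane, had values of 6.12, 6.61 and 6.59 in epiF3, against 6.29, 5.64 and 4.86 in wild type. The epiF3 arrays were close together while the wild-type arrays spread over more than 1 log2 unit, and wild-type replicate 1 lay inside the epiF3 range. The means were 6.44 ± 0.275 in epiF3 and 5.60 ± 0.712 in wild type. The change of 0.84 (SE 0.33, 95% interval 0.07 to 1.62) was the largest in size among the 21 genes, and its adjusted p was 0.409. It was 0.48 once wild-type replicate 3 was left out and 1.19 once replicate 1 was, so the size rests on which wild-type array is included.

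SWEET3 (AT5G53190), grouped by sequence with SWEET1 and SWEET2 in clade I, had values of 2.33 to 2.38 in epiF3 and 2.23 to 2.41 in wild type. On 5 of the 6 arrays these fell in the lowest 25% of the array, where a change is understated, and the measured change of 0.04 (95% interval -0.24 to 0.31) was -0.04 after cyclic loess between arrays. The median change of the 3 clade I genes was 0.68, beside 0.03 over all probe sets, with none past the threshold.

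Clade II, whose characterised members carry mainly hexoses, was measured through SWEET4, SWEET6, SWEET7 and SWEET8. SWEET4 (AT3G28007), a hexose carrier, had values of 4.01, 3.76 and 3.50 in epiF3, against 3.30, 3.27 and 3.75 in wild type. Wild-type replicate 3 lay among the epiF3 values, and the change was 0.32 (SE 0.19, 95% interval -0.12 to 0.75). SWEET6 (AT1G66770) had a change of 0.20 and SWEET7 (AT4G10850) a change of 0.16, and both reached their highest value, 3.03 and 2.52, on epiF3 replicate 3. With the hybridization controls as a covariate these changes were -0.03 and -0.04. The controls averaged 9.02 on epiF3 and 7.62 on wild-type arrays, so a fit with this covariate cannot fully separate them from group. SWEET7 was in the lowest 25% on all 6 arrays, SWEET6 on 1. SWEET8 (AT5G40260), known for its role in pollen wall formation, ranged from 2.01 to 2.46 in epiF3 and from 2.06 to 2.42 in wild type, with a change of -0.01 that turned positive (0.06) when arrays were centred on their medians.

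Clade III holds the sucrose carriers, among them those that feed the phloem. SWEET11 (AT3G48740), which releases sucrose from leaf phloem parenchyma, had values of 9.74, 9.68 and 9.48 in epiF3, against 9.37, 9.32 and 9.65 in wild type. Wild-type replicate 3 exceeded the lowest epiF3 array, so the groups overlapped. The epiF3 mean was 9.63 ± 0.139 and the wild-type mean 9.45 ± 0.179, a change of 0.18 (SE 0.15, 95% interval -0.15 to 0.52, limma adjusted p 0.682). The upper end of that interval corresponds to a 1.44-fold higher level and the lower end to 0.90 of the wild-type level.

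SWEET13 (AT5G50800), also a sucrose carrier, had values of 3.01, 3.72 and 2.87 in epiF3, against 3.85, 3.31 and 4.61 in wild type. Here epiF3 replicate 2 lay within the wild-type range, and the change was -0.73 (SE 0.35, 95% interval -1.53 to 0.08, limma adjusted p 0.514). Leaving out wild-type replicate 3 gave -0.38 and leaving out wild-type replicate 2 gave -1.03. Without epiF3 replicate 2 the change was -0.98, so its size too rests on single arrays.

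SWEET10 (AT5G50790), a sucrose carrier linked to the floral transition, had values of 3.23, 3.21 and 2.82 in epiF3, against 2.82, 2.71 and 2.67 in wild type. The lowest epiF3 array lay marginally below the highest wild-type array. The change was 0.35 (SE 0.15, limma adjusted p 0.454), and it lay between 0.27 and 0.57 across alternatives. SWEET10 and SWEET13 are neighbouring genes in the order of the RefSeq table, with no annotated gene between them. The value of SWEET10 minus that of SWEET13, a pair chosen after the values were seen, was 0.21, -0.51 and -0.05 in epiF3, against -1.03, -0.60 and -1.95 in wild type. The groups did not overlap in this difference, which averaged -0.12 ± 0.367 in epiF3 and -1.19 ± 0.690 in wild type and is given without a test.

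The remaining clade III genes lay near the floor of the arrays. SWEET9 (AT2G39060), which exports sucrose in nectaries, had values of 2.02, 2.08 and 2.65 in epiF3, against 2.08, 1.87 and 2.09 in wild type. Only epiF3 replicate 3 stood out, and the change of 0.24 (95% interval -0.20 to 0.67) was -0.12 with the hybridization controls as a covariate. SWEET14 (AT4G25010), which carries sucrose and gibberellin, ranged from 2.38 to 2.59 in epiF3 and from 2.29 to 2.61 in wild type. Its change was 0.04, and -0.03 after cyclic loess.

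Clade IV genes encode fructose carriers of the vacuolar membrane. SWEET17 (AT4G15920) had values of 7.18, 7.19 and 7.21 in epiF3, against 7.11, 6.91 and 7.45 in wild type. The epiF3 arrays were nearly equal and lay inside the wild-type range, with a mean of 7.19 ± 0.0156 in epiF3 and 7.16 ± 0.271 in wild type and a 95% interval of the change from -0.33 to 0.40. SWEET16 (AT3G16690) had values of 3.50, 3.59 and 3.37 in epiF3, against 3.58, 3.60 and 3.58 in wild type. Its change was -0.10 (95% interval -0.38 to 0.18), and there it was the wild-type arrays that lay close together.

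The TMT carriers, which load hexoses into the vacuole, had 1 positive and 2 negative changes. TMT1 (AT1G20840) had values of 6.76, 6.80 and 6.57 in epiF3, against 6.65, 7.02 and 7.04 in wild type. Wild-type replicate 1 lay among the epiF3 values, and the change was -0.19 (SE 0.15, 95% interval -0.54 to 0.16, limma adjusted p 0.685). TMT2 (AT4G35300) had values of 5.87, 5.69 and 5.57 in epiF3, against 5.75, 5.39 and 6.14 in wild type. All epiF3 values lay inside the wild-type range, and the change of -0.05 (95% interval -0.51 to 0.42) was 0.02 when arrays were centred on their medians. TMT3 (AT3G51490) had values of 2.95, 2.63 and 3.11 in epiF3, against 2.67, 2.64 and 2.58 in wild type. Replicate 2 of epiF3 overlapped wild type, and the change was 0.27 (95% interval -0.08 to 0.62, limma adjusted p 0.579).

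NRT2.5 (AT1G12940), a high-affinity nitrate carrier known from nitrogen-starved plants, stood alone for nitrogen uptake. It had values of 2.46, 2.22 and 2.20 in epiF3, against 2.43, 2.27 and 2.15 in wild type. The groups overlapped almost wholly, and 4 of the 6 values were in the lowest 25% of their array. The change was 0.01 (SE 0.14, 95% interval -0.31 to 0.33), and -0.07 after cyclic loess.

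Among the mineral transporters, ZIP6 (AT2G30080), of the zinc and iron carrier family, had values of 4.13, 4.04 and 3.96 in epiF3, against 4.09, 4.49 and 4.18 in wild type. Only epiF3 replicate 1 reached into the wild-type range, and the change was -0.21 (SE 0.14, 95% interval -0.54 to 0.13, limma adjusted p 0.649), or -0.09 once wild-type replicate 2 was left out. ZIP9 (AT4G33020), a family member known to respond to zinc shortage, had values of 2.66, 2.76 and 2.82 in epiF3, against 2.47, 2.60 and 2.96 in wild type. The epiF3 values lay inside the wild-type range, with a change of 0.07 (95% interval -0.29 to 0.43) that was -0.02 after quantile normalization. NRAMP5 (AT4G18790), of the divalent metal carriers, had values of 3.00, 2.59 and 2.96 in epiF3, against 2.65, 2.73 and 2.81 in wild type. Its change was 0.12 (SE 0.15, 95% interval -0.23 to 0.47), with epiF3 replicate 2 below every wild-type array and the other two epiF3 arrays above them. Leaving out epiF3 replicate 1 gave 0.04 and leaving out epiF3 replicate 2 gave 0.25.

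**Figure D2:**
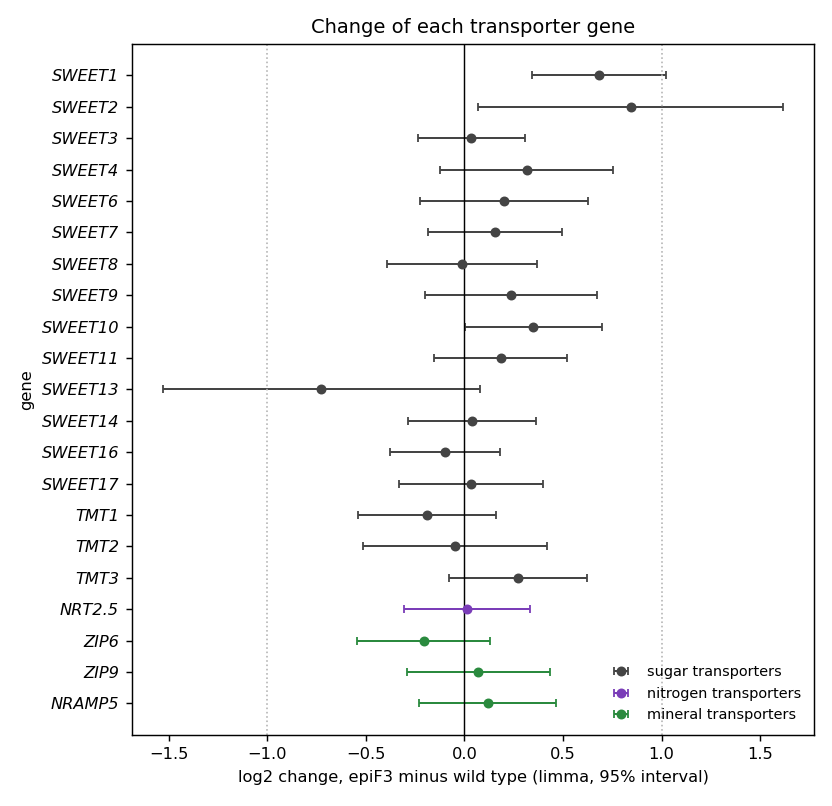
Change in epiF3 against wild type on the log2 scale (horizontal axis) for each transporter gene (rows), with its 95% interval from limma, in grey for sugar, purple for nitrogen and green for mineral transporters. Dotted lines mark a change of 1 in either direction. The intervals of SWEET1 (0.34 to 1.02), SWEET2 (0.07 to 1.62) and SWEET10 lie above 0 before adjustment, and none passed the adjusted threshold.

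By family, 11 of 14 SWEET genes had a positive change, with a median of 0.17, and the TMT genes had a median of -0.05, which was 0.02 after median centring and 0.01 after quantile normalization. All 17 sugar transporters together had 12 positive and 5 negative changes, a median of 0.16 and a range from -0.73 to 0.84. The 3 mineral transporters had 2 positive changes and 1 negative, with a median of 0.07 that was -0.02 after quantile normalization, and a range from -0.21 to 0.12. Over all probe sets, 55.7% of changes were positive and the median was 0.03. Among the 8 SWEET genes known to act at the plasma membrane, 6 changes were positive (median 0.21), and among the 6 SWEET and TMT genes of the vacuolar membrane, 3 were (median -0.01).

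The floor of the arrays moves with these counts. The 7 transporter genes with a value in the lowest 25% of at least 1 array had 6 positive changes, and 71.5% of all such probe sets did. Of the 14 transporter genes above that level on every array, 9 had a positive change, with a median of 0.09. Among all 15427 probe sets of this kind, 48.2% had a positive change and the median was -0.01. For the 11 sugar transporters above that level, the median was 0.18, with 7 positive changes. Leaving out genes by that level was chosen after the data were seen. The planned filter, without the dimmest 40% of probe sets, gave a sugar median of 0.035.

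To set sugar against mineral transporters, each gene was centred on its mean over the 6 arrays and averaged by class on each array. The sugar mean was 0.08, 0.09 and 0.03 on epiF3 arrays, against -0.06, -0.18 and 0.04 on wild-type arrays. Wild-type replicate 3 lay beside epiF3 replicate 3, and wild-type replicate 2, on which 9 of the 21 genes had their lowest value, lay far below. The mineral mean was 0.05, -0.09 and 0.03 on epiF3 arrays, against -0.15, 0.05 and 0.10 on wild-type arrays, with the groups interleaved.

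Sugar minus mineral was 0.03, 0.17 and 0.01 on epiF3 arrays, against 0.09, -0.24 and -0.07 on wild-type arrays. Every epiF3 array was positive, and wild-type replicate 1 fell between epiF3 replicates 1 and 2. In epiF3 the mean was 0.07 ± 0.0906, against -0.07 ± 0.163 in wild type, and they differed by 0.14 against a pooled SD between replicates of 0.132. The difference is thus about as large as the spread between arrays, and leaving out wild-type replicate 2 made it 0.06, leaving out replicate 1 made it 0.22. With 3 mineral genes the mineral side is thinly measured.

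**Figure D3:**
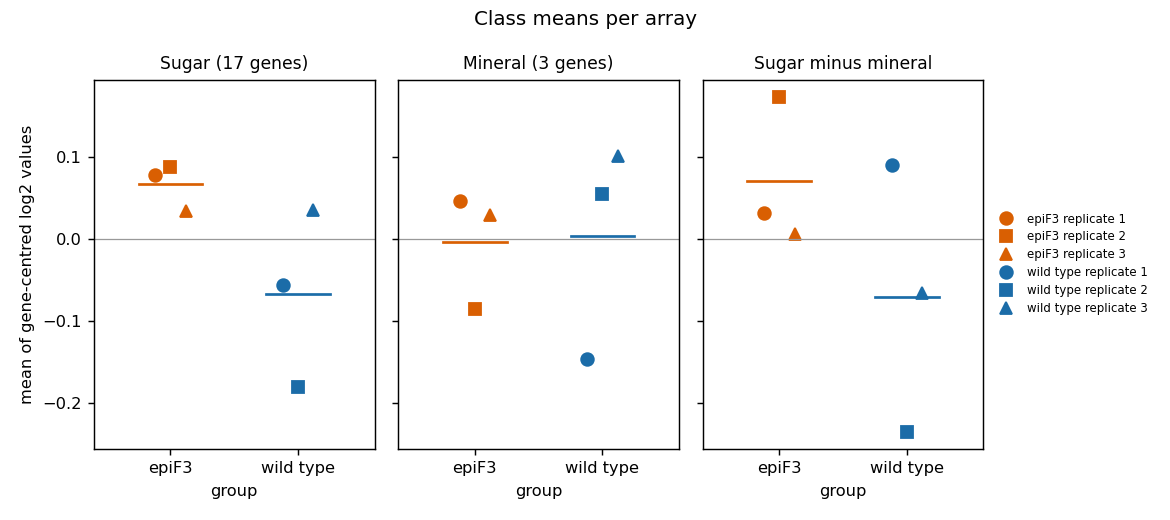
Mean of gene-centred log2 values (vertical axis) on each array for the 17 sugar transporters, the 3 mineral transporters and their difference, with epiF3 in orange left of wild type in blue, a symbol for each replicate and a line for each group mean. The sugar means of epiF3 (0.03 to 0.09) overlap wild-type replicate 3 at 0.04, and the difference sugar minus mineral overlaps through wild-type replicate 1 at 0.09.

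Genes that share the transporters' pathways were thinly covered. Of 111 genes in 7 lists for sugar, nitrogen, potassium, metal, phosphate and sulfate metabolism and transport, 3 were measured by a probe set that named them alone, 5 lists had none, and 0 of the 3 passed the test. The sucrose phosphate synthase gene SPS4F had values of 7.95, 7.79 and 7.70 in epiF3, against 8.72, 7.18 and 7.16 in wild type, where replicate 1 stood far above the others. Its change was 0.12 (SE 0.39). AT1G62660, listed under sugar metabolism, had values of 7.05, 7.65 and 7.81 in epiF3, against 6.60, 6.18 and 6.57 in wild type. The groups did not overlap, and the change of 1.05 (SE 0.22) had an adjusted p of 0.102 (limma). The gene for bZIP19, a transcription factor that activates ZIP genes at low zinc, had a change of 0.01 (95% interval -0.30 to 0.32).

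Markers of other tissues were checked because SWEET8 and SWEET9 are known from flowers and NRT2.5 from roots. Of 6 root markers 3 were measured, and their summed log2 values ranged from 8.96 to 10.5 in epiF3 and from 9.14 to 9.73 in wild type. The root gene PYK10 had a change of 0.02, and the root hair genes EXPA7 and EXPA18 had changes of 0.23 each with adjusted p of 0.618 and 0.681 (limma). Of 4 anther and pollen markers 3 were measured, with sums from 6.91 to 7.52 in epiF3 and from 6.96 to 7.37 in wild type. Among these is AtVEX1, which RefSeq lists as SWEET5, so this sum is not independent of the SWEET family. The anther regulator AMS had a change of 0.10 and was in the lowest 25% of all 6 arrays. LAT52-like (AT5G45880) had a change of -0.16 (limma adjusted p 0.734) and AtVEX1 a change of 0.05. Each of these was in the lowest 25% on 3 arrays. The guard cell regulator FAMA ranged from 4.13 to 5.09 in epiF3 and from 4.74 to 5.07 in wild type. No phloem marker had a probe set that named it alone in the annotation used. In this whole-shoot RNA, fewer cells of a type and less RNA per cell cannot be told apart.

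SWEET1 and TMT1 lie on chromosome 1 among the genes from AT1G19450 to AT1G23960 in RefSeq order, a stretch whose ends were picked with earlier results of these data known. Of its 249 measured genes 5 passed the test as higher and 6 as lower, beside 0.268% and 0.33% of all probe sets, and the median change was 0.03. These counts are a description of the stretch. The nearest measured genes on either side of SWEET1 were AT1G21440 with a change of -0.02 and AT1G21480 with a change of 0.40 (limma adjusted p 0.302).

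**Figure D4:**
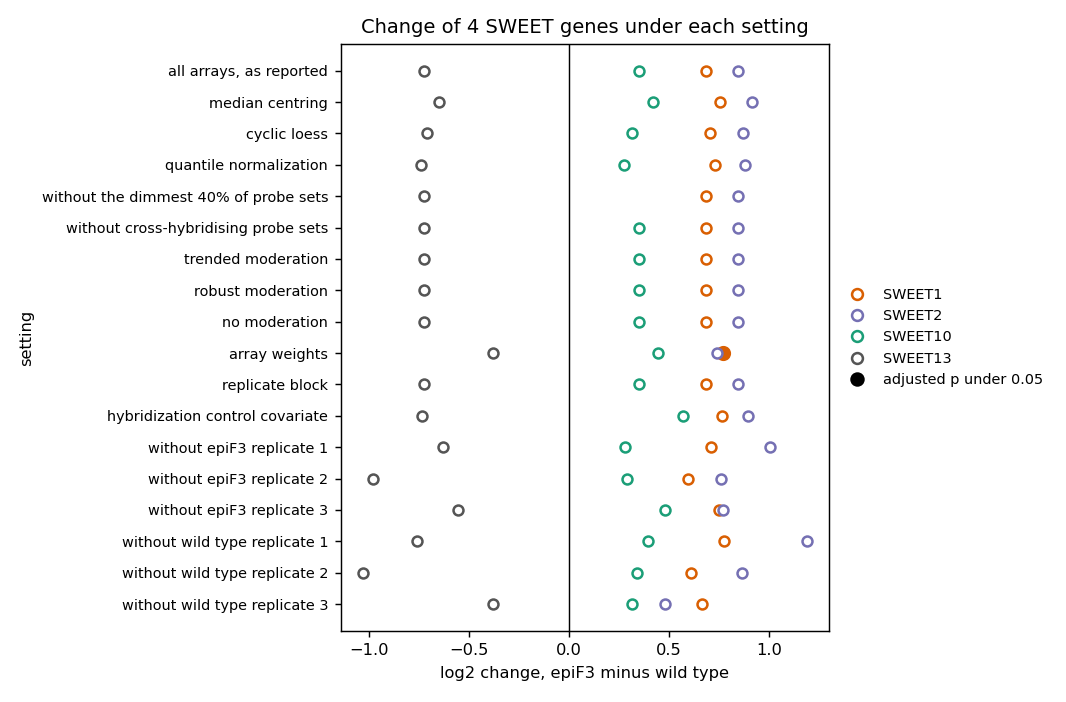
Change on the log2 scale (horizontal axis) of SWEET1, SWEET2, SWEET10 and SWEET13 under each way of processing the arrays and without each array in turn (rows), with a filled point where the adjusted p was under 0.05. All changes kept their sign in these settings, SWEET1 passed with array weights alone, and SWEET13 moved between -1.03 and -0.38. Other moderation, the replicate block and leaving out probe sets cannot move a gene's change. SWEET10 has no point without the dimmest 40% of probe sets, which leaves it out.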

How the data were processed

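The deposited table holds the authors' log2 values for each probe set on every array. The submitters' processing notes name RMA and affy, with no versions, and neither the background step nor the probe grouping behind a probe set is stated there. The log2 scale was inferred from values between 1.21 and 13.4. Of 22810 probe sets, 64 array controls were left out and 22746 tested. The platform annotation gives 1 gene for 13513, several for 503, and leaves 8730 unnamed here; 13436 of the 13513 matched a RefSeq table (TAIR10.1), used only for symbols, synonyms and gene order.

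Groups came from titles. epiF3 minus wild type was fitted with limma 3.58.1 (lmFit, eBayes, no block, no filter) in R 4.3.3 on all probe sets, adjusted by Benjamini-Hochberg at 0.05, and checked on simulated data. The p-values set each change against the spread between these samples, moderated over all probe sets. The 21 transporter genes, the pathway and marker lists, the tests and the alternatives were chosen with earlier results of these data known. By rule every transporter gene was named. Every array was given for those past the threshold and those whose groups do not overlap. In each family every array was also given for the gene with the highest mean and that with the largest change. Of a list, the 2 genes with the smallest p were named. Further genes and array values were printed outside this rule. No sequences are shown, since no table used here held them. Coordinates are not shown either, and the deposited files themselves name no build.

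Alternatives were median centring, cyclic loess, quantile normalization, no dim or cross-hybridising probe sets, other moderation, array weights, a replicate block, the hybridization controls as a covariate, a threshold of 0.01 and leaving out each array.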

Additional observations from a re-analysis of the deposited data

Results flagged for a closer look

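The hybridization controls, used only as a covariate in an alternative fit, were higher on 2 epiF3 arrays than on any wild-type array. Their mean over 18 probe sets exceeded the wild-type mean by 0.74 on epiF3 replicate 2 and by 2.91 on epiF3 replicate 3. Of the 21 transporter genes, 4 (SWEET6, SWEET7, SWEET9 and TMT3) had their highest value on epiF3 replicate 3, which is 19.0%, beside 27.6% of all probe sets. Without that array the SWEET1 change was 0.75 and the sugar transporter median was 0.07. Whether the controls' difference has a part in any transporter value was not tested otherwise.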

How the results depend on the processing

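The finding that 0 of 21 transporter genes passed held in every alternative except array weights, where 1 (SWEET1) passed. Of the 21 changes, 11 kept their sign in every alternative that held them (7 positive and 4 negative) and 10 did not. The alternatives number 17, or 16 for genes among the dimmest 40% of probe sets (SWEET10, TMT3 and NRAMP5 among the 11). Of these, other moderation, the replicate block and leaving out dim or cross-hybridising probe sets cannot alter a gene's change. A sign kept there is no check. The cause of the changes of sign and size below was not tested. Probe sets higher in epiF3 numbered 61 in the reported test, 0 without moderation, 208 with array weights, 26 with the replicate block, 6 with the hybridization controls as covariate, 9 at a threshold of 0.01, and 11 (without epiF3 replicate 2) to 115 (without wild-type replicate 3) with 1 array left out. Those lower numbered 75, and in the same order 2, 241, 48, 18, 24, and 22 to 287 for the same 2 arrays. The labels do not say whether replicate numbers pair the samples. Same-numbered arrays correlated at -0.08, -0.04 and -0.05 in their deviations from group means. Differently numbered arrays correlated at -0.04 to 0.09, and these values cannot settle the pairing. With each number once in each group, the replicate block cannot alter the size of a change, and 0 transporter genes passed with it. The sugar median (0.16) was 0.071 after cyclic loess, 0.056 after quantile normalization, 0.035 without the dimmest 40% of probe sets, 0.039 with the covariate and 0.067 to 0.21 with 1 array left out. The mineral median (0.07) was -0.21 without the dimmest 40%, which leaves ZIP6 alone, -0.069 with the covariate, and -0.033 to 0.16 with 1 array left out. The SWEET median (0.17) was 0.041 with the covariate and 0.072 to 0.21 with 1 array left out. The TMT median (-0.05) was 0.098 with array weights and -0.13 to 0.14 with 1 array left out. Sugar minus mineral (0.14) was 0.32 without the dimmest 40% and 0.06 to 0.22 with 1 array left out.

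Signs changed as follows. After cyclic loess, SWEET3 was -0.043, SWEET14 -0.033 and NRT2.5 -0.070. After quantile normalization, SWEET3 was -0.064, SWEET14 -0.068, TMT2 0.0081, NRT2.5 -0.082 and ZIP9 -0.024. With the covariate, SWEET6 was -0.029, SWEET7 -0.042, SWEET8 0.093, SWEET9 -0.12, SWEET17 -0.083 and ZIP9 -0.069. After median centring, SWEET8 was 0.060 and TMT2 0.023, and with array weights SWEET8 was 0.071 and TMT2 0.098. With 1 array left out, the ranges were -0.010 to 0.079 for SWEET3, -0.14 to 0.090 for SWEET8, -0.027 to 0.13 for SWEET14, -0.087 to 0.18 for SWEET17, -0.23 to 0.14 for TMT2, -0.071 to 0.085 for NRT2.5 and -0.033 to 0.21 for ZIP9. Among genes that kept their sign with 1 array left out, the ranges were 0.19 to 0.47 for SWEET4, 0.039 to 0.35 for SWEET6, 0.067 to 0.25 for SWEET7, 0.037 to 0.35 for SWEET9, 0.12 to 0.29 for SWEET11, -0.15 to -0.041 for SWEET16, -0.31 to -0.12 for TMT1 and 0.16 to 0.40 for TMT3. Other probe sets of a gene could not be tried, since each transporter gene had 1. Leaving out genes near the floor gave a sugar median of 0.18 and a sugar minus mineral difference of 0.15, and adding the genes RefSeq lists as SWEET5 and SWEET15 left the sugar median at 0.16; these were chosen after seeing the data.

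With 3 arrays a group the intervals are wide, and values near the floor understate change. No detection calls were used, and the size of several changes rests on single arrays of either group. Without epiF3 replicate 3, for example, the sugar median was 0.067 and the SWEET9 change 0.037.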

Other observations

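Genes that RefSeq names as NPF by synonym (the NRT1/PTR family of nitrate and peptide carriers, which also moves hormones and glucosinolates) carry locus names or other symbols on the array and so fell outside the symbols used above. They were added after the data were seen and with results for other genes of this family known, so their counts are a description. The synonyms gave 11 measured genes, and what share of the whole family these are was not counted. All 11 had a positive change, with a median of 0.63 and a range from 0.0017 to 1.05. Over all probe sets, 55.7% were positive and the median was 0.03. All epiF3 values lay above all wild-type values in 5 of the 11, against 9.75% of all probe sets, and 6 had an unadjusted p under 0.05, against 5.37% of all. The mean of the gene-centred values was 0.22, 0.37 and 0.23 on epiF3 arrays, against -0.18, -0.34 and -0.29 on wild-type arrays. The groups were apart in this mean, and the median change lay between 0.42 and 0.70 in the alternatives run, of which that without the dimmest 40% of probe sets lacks NPF4.1, NPF4.2, NPF4.5 and NPF5.13. The changes of NPF4.2 and NPF5.13, at 0.0017 and 0.11, turned negative in some alternatives, and those of the other genes did not.

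Of the 11 genes, 1 passed the test as higher, beside 0.268% of all probe sets. GTR2 (AT5G62680, NPF2.11), a glucosinolate transporter, had values of 8.53, 8.83 and 8.57 in epiF3, against 7.57, 7.75 and 7.87 in wild type. The groups were well apart, and it rose by 0.91 (SE 0.15, limma adjusted p 0.0456). That call held in 9 of 17 alternatives, with limma adjusted p from 0.0149 to 0.302. With 1 array left out it held only without wild-type replicate 3. It was also lost without moderation, with the replicate block and with the covariate. Its relative GTR1 (NPF2.10) had a change of 0.38 and did not pass.

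NPF6.2 (AT2G26690) had values of 8.78, 9.05 and 9.01 in epiF3, against 7.77, 7.52 and 8.41 in wild type, a change of 1.05 (limma adjusted p 0.113). NPF6.4 (AT3G21670) had values of 8.86, 9.39 and 9.40 in epiF3, against 8.34, 7.90 and 8.43 in wild type, a change of 0.99 (limma adjusted p 0.0969). NPF4.3 (AT1G59740) had values of 5.57, 5.69 and 5.28 in epiF3, against 4.92, 4.87 and 4.73 in wild type, a change of 0.67 (limma adjusted p 0.119). In these genes the lowest epiF3 array was above the highest wild-type array, as it was in NPF4.5 (AT1G27040), with a change of 0.63 (limma adjusted p 0.383). The changes of NPF4.4, NPF3.1 and NPF4.1 were 0.66, 0.41 and 0.13.

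Of the SWEET genes known to RefSeq under another symbol, SAG29 (SWEET15), a senescence-associated sucrose carrier, had values of 3.85, 4.60 and 3.76 in epiF3, against 4.44, 3.04 and 3.52 in wild type. The groups overlapped, with a change of 0.41 (SE 0.37). AtVEX1 (SWEET5), known from the vegetative cell of pollen, had a change of 0.05 (95% interval -0.44 to 0.54).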
